A study of Homo sapiens with 9 samples.

Results

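Pregnancy-specific glycoproteins (PSG) were followed across MDA-MB-231 cells, a mesenchymal-like triple-negative human breast cancer line, as 10 paralogous genes of a chromosome 19 cluster. The members were taken by symbol: PSG1, PSG2, PSG3, PSG4, PSG5, PSG6, PSG7, PSG8, PSG9 and PSG11, 10 of the 26364 genes listed. All 10 were listed in the counts of all 9 RNA libraries, but PSG2, PSG3, PSG6 and PSG8 had 0 counts in at least 1 library. The family was chosen by its counts in these same libraries, in which it was already known to be low after GLO1 silencing, so every comparison of a member with control cells below is a description and carries no p-value. Only the comparison of the clones with each other was tested.

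The libraries came from 3 groups with 3 replicates each. The shGLO1#1 and shGLO1#2 cells each stably carry an shRNA against GLO1, the glyoxalase that detoxifies methylglyoxal, a reactive by-product of glycolysis. The shNT cells carry a non-targeting shRNA. Each group is 1 clone of the line, so a difference between silenced and control cells cannot be told apart from a difference between clones, and the spread between replicates is that of libraries from the same clone. GLO1 levels were 64.2, 65.9 and 65.9 CPM (counts per 1000000 gene counts, scaled by TMM) in shGLO1#1, 14.6, 15.5 and 14 CPM in shGLO1#2, and 323, 312 and 317 CPM in shNT, so every library fitted its label. The libraries held 15314238 to 18495576 gene counts. VIM lay between 3020 and 4380 CPM and CD44 between 325 and 445 CPM, while ESR1 reached at most 0.432 CPM and PGR at most 0.247 CPM, as the line is known for. Epithelial markers of the same list were expressed too. KRT8 lay between 860 and 1190 CPM, KRT18 between 543 and 922 CPM and KRT19 between 380 and 502 CPM. EPCAM lay between 9.56 and 15.5 CPM, and the receptor gene ERBB2 between 65.6 and 86.3 CPM.

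PSG proteins are secreted glycoproteins of the carcinoembryonic antigen family, built from immunoglobulin-like domains, and they are relatives of the membrane-bound CEACAM adhesion molecules. The syncytiotrophoblast of the placenta makes them in large amounts, which gave the family its name, and they are known to act on immune cells, platelets and blood vessels of the mother. PSG1 and PSG9 are known to activate latent TGF-beta 1, and PSG1 also binds integrins and heparan sulphate chains. Expression outside the placenta has been described in several tumours.

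Promoter sequence was at hand for only 3 of the 10 members in RefSeq (GRCh38.p14), and these 3 are shown for that reason. They are PSG4, the member least reduced in the silenced cells, PSG5, a strongly reduced member, and PSG3, the least abundant member. By its few counts PSG3 was reduced too, 31.3-fold in shGLO1#1 and 10.1-fold in shGLO1#2. PSG promoters are known for GC-rich and CACCC-type boxes near the start, to which SP and KLF factors bind. Each run below covers the 250 bases before the gene start, read 5′ to 3′ on the minus strand of chromosome 19, with the box in capitals. PSG3 lies at chr19:42740482-42740731, PSG4 at chr19:43205639-43205888 and PSG5 at chr19:43186537-43186786.
PSG3: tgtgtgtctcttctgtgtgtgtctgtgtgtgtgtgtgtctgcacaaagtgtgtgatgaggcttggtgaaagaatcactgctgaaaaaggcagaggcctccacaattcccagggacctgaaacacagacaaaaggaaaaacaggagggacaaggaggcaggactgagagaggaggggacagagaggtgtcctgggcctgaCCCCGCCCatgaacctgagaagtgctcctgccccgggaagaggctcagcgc
PSG4: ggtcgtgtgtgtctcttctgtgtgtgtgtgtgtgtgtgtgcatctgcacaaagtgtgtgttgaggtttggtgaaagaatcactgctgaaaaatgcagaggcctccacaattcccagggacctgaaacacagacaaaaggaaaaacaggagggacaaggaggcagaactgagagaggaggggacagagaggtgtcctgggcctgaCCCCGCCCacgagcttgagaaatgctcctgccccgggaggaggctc
PSG5: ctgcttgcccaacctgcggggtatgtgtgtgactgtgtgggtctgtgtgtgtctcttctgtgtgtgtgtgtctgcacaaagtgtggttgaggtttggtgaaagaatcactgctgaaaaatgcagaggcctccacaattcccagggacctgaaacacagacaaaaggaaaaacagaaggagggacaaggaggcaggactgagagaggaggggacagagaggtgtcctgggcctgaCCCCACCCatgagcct

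The 3 promoters were near copies of each other over the bases that aligned. Identity over the aligned bases was 95.4% between PSG4 and PSG5 (219 bases), 95.1% between PSG3 and PSG4 (245 bases) and 96.3% between PSG3 and PSG5 (214 bases). Gaps, left out of these values, took 62, 10 and 72 bases in the same order. PSG3 and PSG4 carried CCCCGCCC, 51 to 44 and 46 to 39 bases before the start. PSG5 carried CCCCACCC in its place, 16 to 9 bases before its start. These positions are counted from each annotated gene start, so they also depend on where the gene model begins. Counted from the 5′ end of the box, the PSG5 box differs from the PSG4 box by G5A. Both boxes were searched on both strands of the same 250 bases in all 35116 promoters, and they do not overlap as motifs. CCCCGCCC was found in 21.8% of them and CCCCACCC in 10.4%. A match describes these letters and is no evidence of binding. Whether the box bears on the level of a member was not tested.

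In the silenced clones the family as a whole was far lower than in control cells. Summed over the 10 members, PSG counts made up 7.22, 8.27 and 8.5 CPM in shGLO1#1 and 6.33, 5.7 and 8.81 CPM in shGLO1#2, against 112, 73.9 and 97.2 CPM in shNT. The lowest control library was thus above every silenced library by a wide margin, and the ranges of the clones overlapped. In RNA of whole cultures, fewer expressing cells and less RNA per cell cannot be told apart. The means were 8 ± 0.681 CPM in shGLO1#1, 6.95 ± 1.65 CPM in shGLO1#2 and 94.3 ± 19.1 CPM in shNT (SD, n = 3 each). The log2 ratio of these means was -3.56 for shGLO1#1 (11.8-fold lower than shNT) and -3.76 for shGLO1#2 (13.6-fold lower).

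All 10 members shared this direction in each clone. For every member the 3 shNT libraries lay above the 3 libraries of shGLO1#1 and above the 3 libraries of shGLO1#2. Among all genes tested, the shNT libraries lay above all 6 silenced libraries in 12.6%. Of the 10 members, 9 had enough counts for the fit across all genes, the exception being PSG3. The fitted log2 fold change was under -1 in 9 of these 9 members in shGLO1#1 and in 8 of 9 in shGLO1#2, where the background of all 13704 genes was 2.88% and 2.69%. The median over the 9 was -4.13 in shGLO1#1 and -4.35 in shGLO1#2, and the median over all genes was 0 in both. Since the family was chosen for this pattern, nothing is read from these counts.

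**Figure D1:**
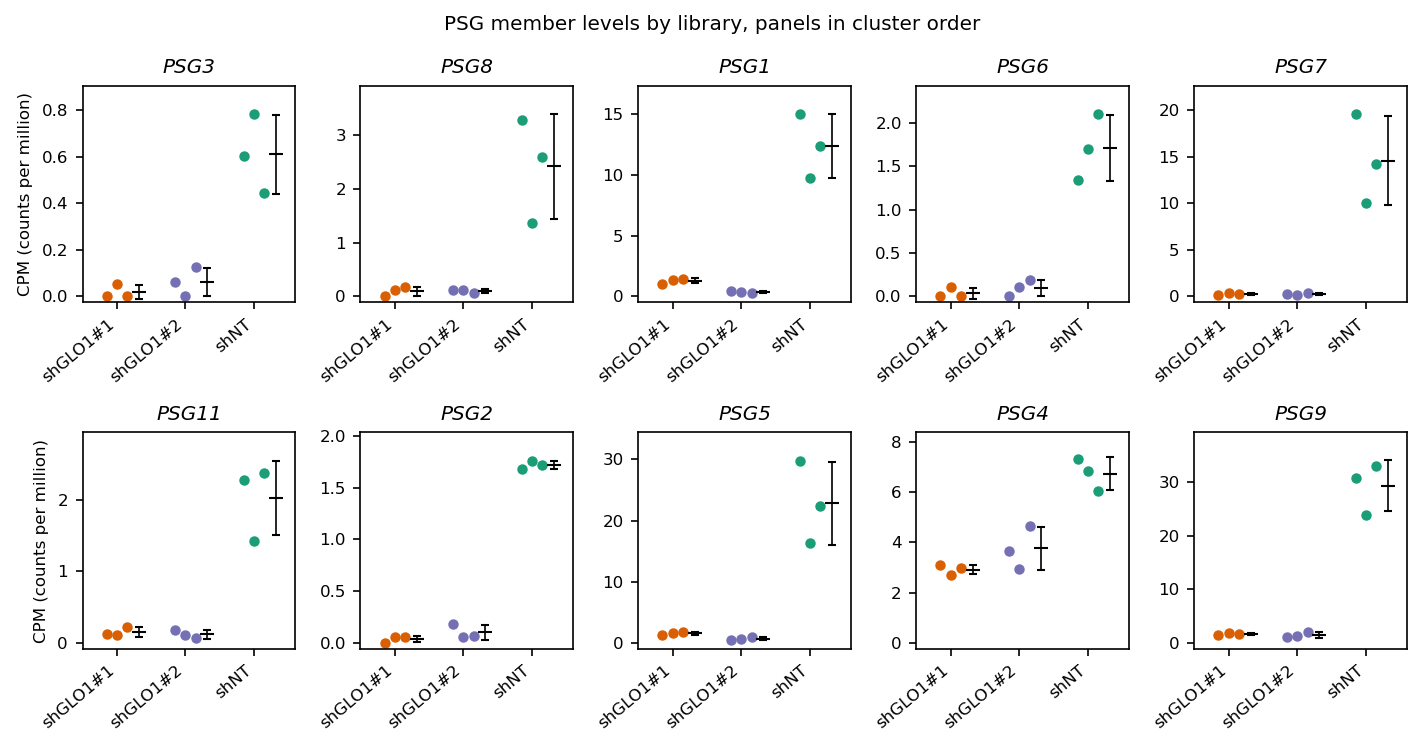
Level of each PSG member (CPM, linear axes that differ between panels) in the 3 libraries of shGLO1#1, shGLO1#2 and shNT, with panels in the order of the genes along the cluster. Points are libraries, and the bar beside them is the mean ± SD (n = 3). In all 10 panels the shNT points lie above the silenced ones, and PSG4 shows the smallest gap, with 2.72 to 4.65 CPM in the silenced libraries against 6.03 to 7.32 CPM in shNT.

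PSG9, an activator of latent TGF-beta 1, was the most abundant member in control cells. It had 1.54, 1.8 and 1.65 CPM in shGLO1#1, 1.04, 1.23 and 2.05 CPM in shGLO1#2, and 30.8, 23.9 and 33 CPM in shNT. The control libraries lay far above all silenced libraries, and those of the clones overlapped. The log2 fold change was -4.13 (SE 0.19) in shGLO1#1 and -4.35 (SE 0.2) in shGLO1#2.

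PSG5 had 1.23, 1.63 and 1.77 CPM in shGLO1#1, 0.426, 0.614 and 0.993 CPM in shGLO1#2, and 29.8, 16.3 and 22.3 CPM in shNT. All 3 groups were apart, with shGLO1#2 the lowest. Its log2 fold change against shNT was -3.87 (SE 0.25) in shGLO1#1 and -5.06 (SE 0.29) in shGLO1#2.

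PSG7 had the most negative fitted log2 fold change of the members in each clone. It had 0.185, 0.326 and 0.228 CPM in shGLO1#1, 0.244, 0.168 and 0.372 CPM in shGLO1#2, and 19.6, 10 and 14.2 CPM in shNT. Each clone was left with 13 counts over its 3 libraries, while shNT had 702. The log2 fold change was -5.83 (SE 0.34) in shGLO1#1 and -5.78 (SE 0.34) in shGLO1#2.

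PSG1, the best studied member of the family, had 1.05, 1.36 and 1.43 CPM in shGLO1#1, 0.426, 0.335 and 0.248 CPM in shGLO1#2, and 15, 9.72 and 12.4 CPM in shNT. Here too the 3 groups did not overlap, and shGLO1#2 held the lowest values. The log2 fold change was -3.26 (SE 0.21) in shGLO1#1 and -5.17 (SE 0.26) in shGLO1#2.

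PSG4 kept more of its level than any other member. It had 3.09, 2.72 and 2.97 CPM in shGLO1#1, 3.65, 2.96 and 4.65 CPM in shGLO1#2, and 7.32, 6.85 and 6.03 CPM in shNT. The control libraries were still above all silenced ones, but the lowest shNT library exceeded the highest shGLO1#2 library by little. The log2 fold change was -1.2 (SE 0.18) in shGLO1#1 and -0.84 (SE 0.17) in shGLO1#2, the only member and clone in which it was not under -1. By summed counts, PSG4 was 2.29-fold lower in shGLO1#1 than in shNT (exact 95% interval 1.89 to 2.8) and 1.79-fold lower in shGLO1#2 (1.49 to 2.16). No other member's interval reached as low as 2.8-fold, the nearest being that of PSG3 in shGLO1#2, which began at 3.13-fold.

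The remaining members were scarce in control cells and close to the detection limit in the silenced ones, where 3 counts in a library correspond to 0.163 to 0.186 CPM. PSG8 had 0, 2 and 3 counts in shGLO1#1, 2, 2 and 1 in shGLO1#2, and 49, 21 and 47 in shNT. PSG11 had 2, 2 and 4 counts in shGLO1#1, 3, 2 and 1 in shGLO1#2, and 34, 22 and 43 in shNT. For both, every control library was far above every silenced one.

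PSG2 had 0, 1 and 1 counts in shGLO1#1, 3, 1 and 1 in shGLO1#2, and 25, 27 and 31 in shNT. PSG6 had 0, 2 and 0 counts in shGLO1#1, 0, 2 and 3 in shGLO1#2, and 20, 26 and 38 in shNT. PSG3 had 0, 1 and 0 counts in shGLO1#1, 1, 0 and 2 in shGLO1#2, and 9, 12 and 8 in shNT. At so few counts the size of the difference is known only within wide limits. The ratio of shNT over shGLO1#1 was 44.8 for PSG2 (exact 95% interval 12 to 376), 45.3 for PSG6 (12.2 to 381) and 31.3 for PSG3 (5.19 to 1280), and the ratio of shNT over shGLO1#2 for PSG3 was 10.1 (3.13 to 51.8). All intervals and floors cover counting error only.

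Ranked per kilobase of transcript, the members of control cells spread over a wide range. The mean level in shNT was 16.9 CPM per kilobase for PSG9, 13.5 for PSG5, 7.22 for PSG7, 6.53 for PSG1 and 3.57 for PSG4. On the same scale it was 1.75 for PSG11, 1.47 for PSG8, 1.12 for PSG2, 1.11 for PSG6 and 0.354 for PSG3. The ranges over the 3 libraries overlapped between PSG9 and PSG5, PSG5 and PSG7, PSG7 and PSG1, PSG11 and PSG8, PSG8 and PSG2, and PSG2 and PSG6. Since all members were measured in the same libraries, the order can also be read within each one. PSG9 exceeded PSG5, and PSG5 exceeded PSG7, in all 3 shNT libraries, while the order of PSG7 and PSG1, PSG11 and PSG8, PSG8 and PSG2, and PSG2 and PSG6 changed between libraries. In shNT replicate 1, however, PSG9 and PSG5 were nearly level, at 17.9 and 17.6 CPM per kilobase. The ranges did not overlap between PSG1 and PSG4, PSG4 and PSG11, or PSG6 and PSG3. In the silenced cells PSG4 had the highest mean level per kilobase, with 1.55 CPM per kilobase in shGLO1#1 and 1.99 in shGLO1#2, followed by PSG9 with 0.964 and 0.832. Transcript lengths are medians of GENCODE gene models, which may differ from those the counts were made with.

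The control libraries differed among themselves by more for the family than for GLO1. The highest shNT library exceeded the lowest by 1.04 times for GLO1, 1.05 times for PSG2, 1.21 times for PSG4, 1.83 times for PSG5, 1.95 times for PSG7 and 2.4 times for PSG8. Replicate 2 was the lowest shNT library for 6 members, PSG1, PSG5, PSG7, PSG8, PSG9 and PSG11. It was the highest for PSG2 and PSG3.

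The make-up of the remaining PSG counts also differed. PSG4 accounted for 36.4% of the family's 418 counts in shGLO1#1 (Wilson 95% interval 31.9 to 41.1), 54% of 348 counts in shGLO1#2 (48.8 to 59.2) and 7.1% of 4552 counts in shNT (6.39 to 7.88). PSG7 took 3.11% in shGLO1#1 (1.83 to 5.25), 3.74% in shGLO1#2 (2.2 to 6.29) and 15.4% in shNT (14.4 to 16.5). These intervals cover counting error only, and single libraries fell outside them, such as shNT replicate 2 with 9.27% for PSG4. By library, PSG4 held 32.9 to 42.7% in shGLO1#1, 52 to 57.7% in shGLO1#2 and 6.21 to 9.27% in shNT. PSG7 held 2.56 to 3.95% in shGLO1#1, 2.94 to 4.23% in shGLO1#2 and 13.6 to 17.5% in shNT. In every silenced library PSG4 thus took more of the counts than in any shNT library, and PSG7 less. PSG9 held 20.8% in shGLO1#1, 20.7% in shGLO1#2 and 31.2% in shNT. PSG1 held 16% in shGLO1#1 (12.8 to 19.9), 4.89% in shGLO1#2 (3.07 to 7.68) and 13.1% in shNT (12.1 to 14.1). PSG5 held 19.4% in shGLO1#1 (15.9 to 23.4), 9.77% in shGLO1#2 (7.08 to 13.3) and 24.1% in shNT (22.9 to 25.4). The shares of PSG1 and PSG5 were thus lowest in shGLO1#2, and the other 5 members each held under 4% in every group. A share rises when other members become scarcer, and PSG4's own level was lower in both clones.

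**Figure D2:**
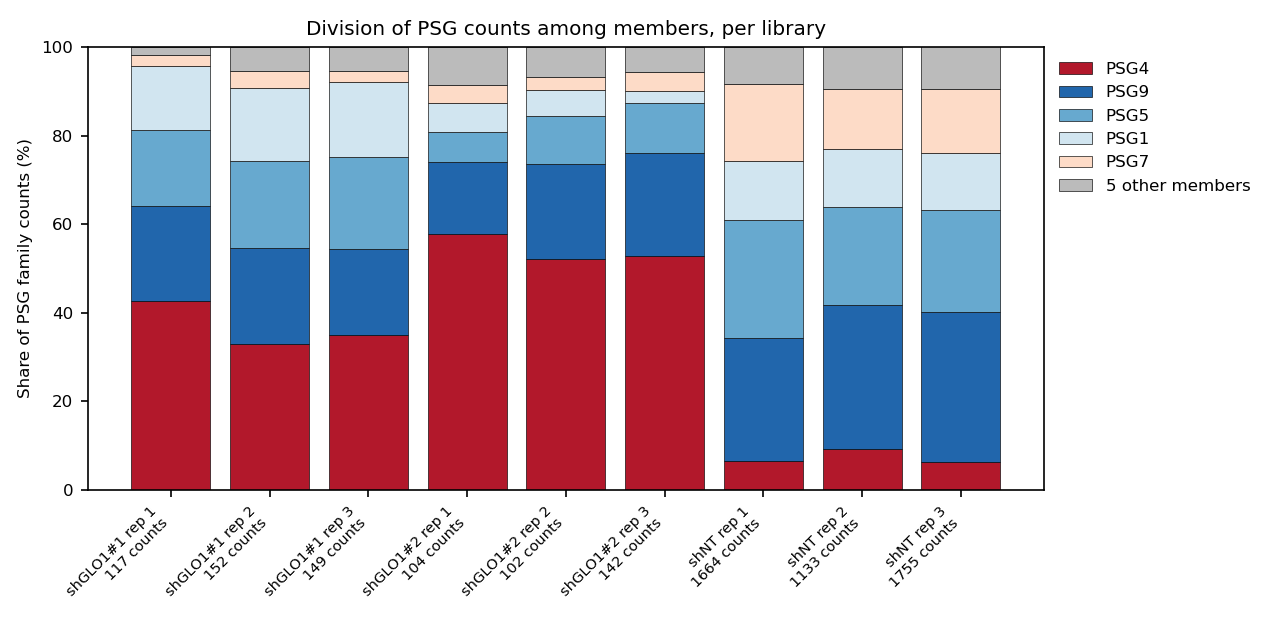
Share of each library's PSG counts (percent of the family's counts, stacked to the whole) taken by PSG4, PSG9, PSG5, PSG1, PSG7 and the other 5 members together, for the 3 libraries each of shGLO1#1, shGLO1#2 and shNT, with the family's count under each bar. PSG4 is the largest block in every silenced library and a thin one in every shNT library, where PSG9 and PSG5 dominate.

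PSG reads are hard to assign, because the genes are near copies and reads that fit more than 1 place were not counted. Of all 50-base stretches in the GENCODE transcripts of a member, between 63.4% (PSG8) and 84.5% (PSG4) occurred in no other gene. For PSG9 this share was 65.4%, for PSG3 73.9%, for PSG1 76.9%, for PSG5 82.8% and for PSG7 83.5%. With 100-base stretches it was between 84.7% (PSG9) and 97.6% (PSG4). Reads from the remaining stretches cannot be assigned to a member with certainty, so the levels of single members, PSG8 and PSG9 most of all, are uncertain to that extent. The share of alignments that were not unique was 5.83 to 6.04% in shGLO1#1, 5.79 to 6.15% in shGLO1#2 and 5.76 to 5.85% in shNT.

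The clones were then compared with each other, the contrast that did not choose the family. PSG1 and PSG5 were lower in shGLO1#2 than in shGLO1#1, and no member was called higher. PSG1 differed by -1.91 on the log2 scale (SE 0.37, adjusted p = 0.000802, edgeR quasi-likelihood test) and was lower in each of the 3 shGLO1#2 libraries than in any shGLO1#1 library. PSG5 differed by -1.19 (SE 0.41, adjusted p = 0.0285, edgeR), again without overlap between the clones. In all, 2 of the 9 members in the fit were called lower and 0 higher, against a background of 3.75% of all genes called lower and 3.33% called higher. PSG2, PSG6, PSG7, PSG8 and PSG11 entered the fit through their shNT counts and had 0 to 6 counts in each silenced library. With only the 6 libraries of the clones in the fit they fell below the filter, which left 4 members, PSG1, PSG4, PSG5 and PSG9, and the same calls of PSG1 (-1.9, edgeR adjusted p = 0.000651) and PSG5 (-1.19, edgeR adjusted p = 0.0104). The same 2 members passed an unadjusted p under 0.05 in the fit of all libraries. Libraries did not overlap with shGLO1#2 lower in 2 of the 10 members, near the 28.5% of all genes for which this was so.

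The call of PSG1 held with each library left out in turn, with differences of -2.1 to -1.74. That of PSG5 did not. Its difference was -1.15 without shGLO1#1 replicate 2 (adjusted p = 0.0678, edgeR), -1.09 without shGLO1#1 replicate 3 (adjusted p = 0.0784), -0.96 without shGLO1#2 replicate 1 (adjusted p = 0.103) and -1.12 without shGLO1#2 replicate 2 (adjusted p = 0.0851). GLO1 itself was lower in shGLO1#2 than in shGLO1#1, by -2.15 on the log2 scale (SE 0.06, adjusted p = 1.24e-10, edgeR). Its part in the PSG1 and PSG5 results was not tested.

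The other members showed no called difference between the clones, and their counts bound it only loosely. As a ratio of shGLO1#2 over shGLO1#1 in summed counts, PSG9 stood at 0.855 (exact 95% interval 0.617 to 1.18), PSG7 at 1.03 (0.441 to 2.42), PSG11 at 0.775 (0.222 to 2.55) and PSG8 at 1.03 (0.238 to 4.49). PSG2 and PSG6 each had 5 counts in shGLO1#2 and 2 in shGLO1#1, a ratio of 2.58 (0.423 to 27.1). PSG3 had 3 counts in shGLO1#2 and 1 in shGLO1#1, a ratio of 3.1 (0.249 to 163). PSG4 was at 1.28, with a counting interval of 1.03 to 1.59 that excludes equality, but against the spread between libraries its log2 difference of 0.36 (SE 0.19) did not pass (adjusted p = 0.14, edgeR).

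**Figure D3:**
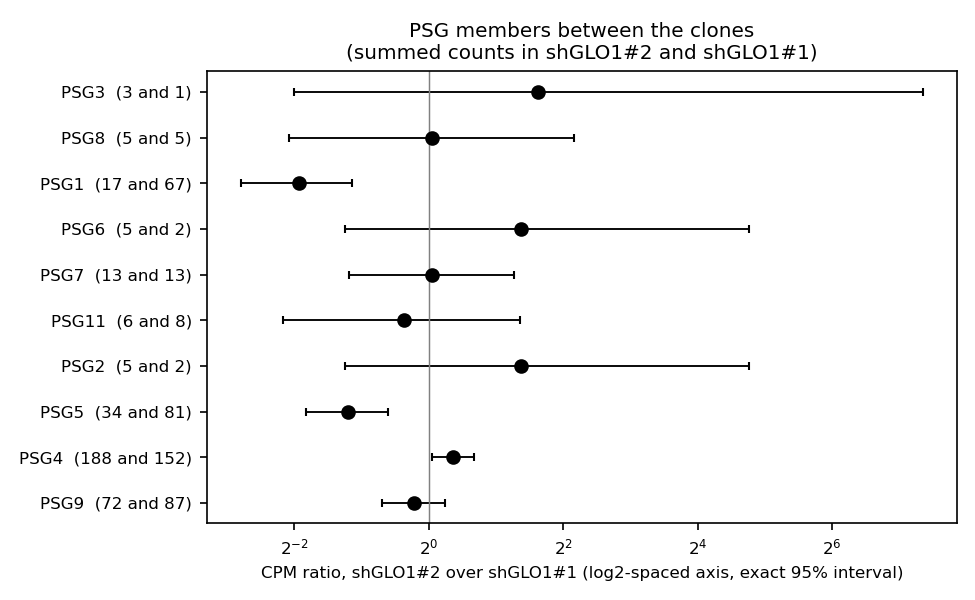
Ratio of CPM in shGLO1#2 over shGLO1#1 for each PSG member (log2-spaced axis), with the exact 95% interval from counting error and the summed counts of shGLO1#2 and shGLO1#1 in brackets. PSG1 (0.262, interval 0.144 to 0.452) and PSG5 (0.434, interval 0.282 to 0.655) lie wholly below 1, PSG4 just above it, and the other 7 intervals include 1.

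Along the chromosome the members run from PSG3 next to CEACAM8, through PSG8, PSG1, PSG6, PSG7, PSG11, PSG2, PSG5 and PSG4, to PSG9 next to CD177. PSG4, the least reduced gene, thus lies between PSG5 and PSG9, which are among the strongly reduced ones. Besides the members, the cluster holds the pseudogene PSG10P. It had 2, 3 and 2 counts in shGLO1#1, 2, 5 and 2 in shGLO1#2, and 37, 20 and 41 in shNT. In shGLO1#1 it fell by 3.84 on the log2 scale (SE 0.42), and in shGLO1#2 it fell by 3.45 (SE 0.4). As a near copy of the members it may hold some of their reads, so these values are a description without a p-value, as for the members. The uncharacterised LOC284344, between PSG4 and PSG9 and singled out after its values were seen, had 4, 5 and 8 counts in shGLO1#1, 6, 6 and 2 in shGLO1#2, and 14, 15 and 13 in shNT. On the log2 scale it fell by 1.4 in shGLO1#1 (SE 0.39, edgeR adjusted p = 0.00959) and fell by 1.63 in shGLO1#2 (SE 0.41, edgeR adjusted p = 0.00588).

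Beyond the cluster, a single neighbour on each side was called, CEACAM1 as higher and CD177 as lower. Next to PSG3, CEACAM8 had 0 to 2 counts in any library and was not tested. CEACAM1, an inhibitory adhesion receptor of the same superfamily, was higher in both clones. It had 0.802, 0.87 and 0.798 CPM in shGLO1#1, 3.9, 2.35 and 3.6 CPM in shGLO1#2, and 0.0672, 0.0652 and 0.332 CPM in shNT. The 3 groups did not overlap, and on the log2 scale it rose by 2.27 in shGLO1#1 (SE 0.53, edgeR adjusted p = 0.00308) and by 4.25 in shGLO1#2 (SE 0.41, edgeR adjusted p = 3.46e-06). Of its 8 control counts 6 lay in shNT replicate 3, and without that library the values were 3.5 in shGLO1#1 and 5.48 in shGLO1#2, so the size of the rise rests on few counts. CXCL17, a mucosal chemokine, had 0 to 2 counts per library. Of 12 genes listed on this side, 9 were tested, and CEACAM1 was the only one called, in either clone. Without a filter on low counts TMEM145 was called too, in shGLO1#1, and it was also called there without shGLO1#1 replicate 1 (log2 fold change 1.92), shNT replicate 3 (2.11) or any of the 3 shGLO1#2 libraries (1.64 each).

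On the far side, CD177, a surface protein of neutrophils, was lower in both clones. It had 1.48, 1.36 and 1.48 CPM in shGLO1#1, 1.64, 2.35 and 2.3 CPM in shGLO1#2, and 4.64, 5.35 and 5.26 CPM in shNT. The shNT libraries lay above all silenced ones, and it fell by 1.82 on the log2 scale in shGLO1#1 (SE 0.19, edgeR adjusted p = 5.21e-06) and fell by 1.27 in shGLO1#2 (SE 0.18, edgeR adjusted p = 8.66e-05). TEX101, a germ cell protein, and LYPD3, an epithelial surface protein, had 2 to 5 and 0 to 7 counts and were not tested. Of 14 genes listed on this side, 11 were tested and CD177 was the only one called, in either clone. CADM4, an adhesion molecule, reached the limit in shGLO1#1 without shNT replicate 1 (1.13). Over the 9 and 11 genes tested the median log2 fold change was -0.08 and 0 in shGLO1#1, and 0.06 and -0.17 in shGLO1#2, beside 0 over all genes. Of all genes, 8.73% were called in shGLO1#1 (5.98% higher and 2.75% lower) and 7.68% in shGLO1#2 (5.09% higher and 2.59% lower).

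**Figure D4:**
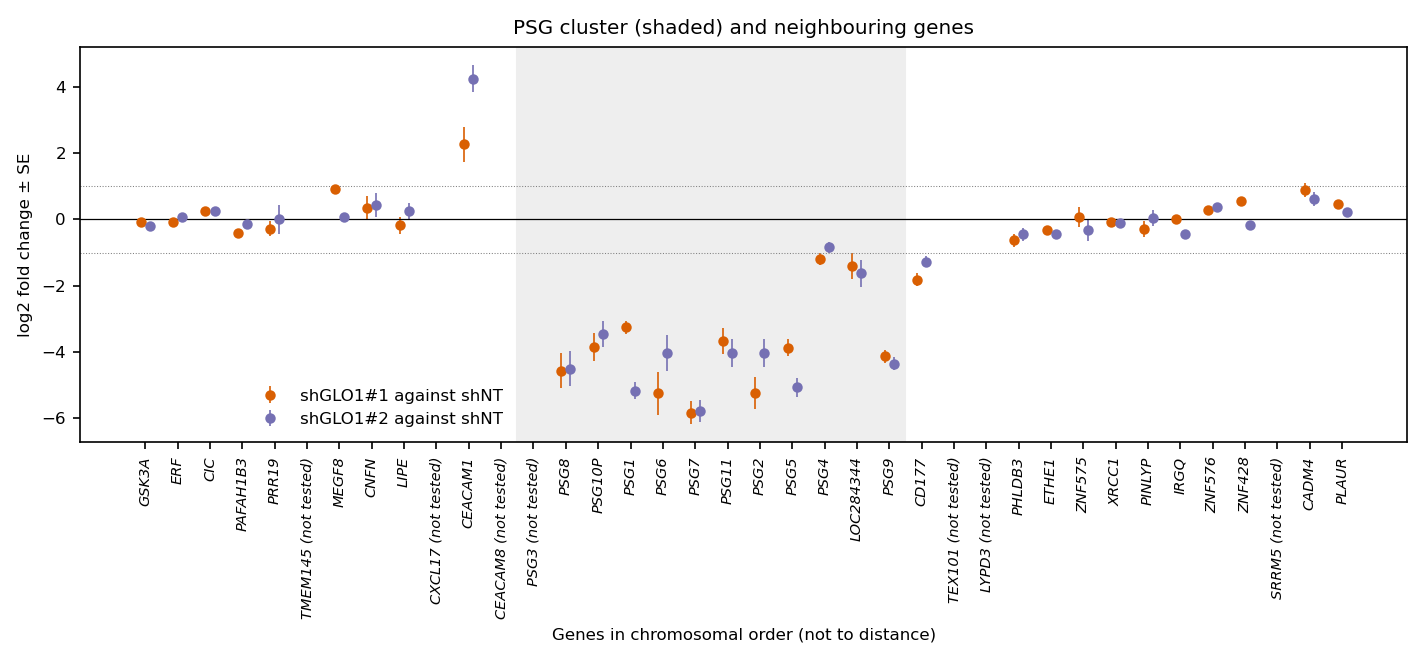
Log2 fold change ± SE (edgeR, all 9 libraries) of shGLO1#1 and shGLO1#2 against shNT for the PSG cluster (shaded) and the listed genes on both sides, evenly spaced in chromosomal order and not by distance. Dotted lines mark -1 and 1. PSG8, PSG1, PSG6, PSG7, PSG11, PSG2, PSG5, PSG9 and PSG10P lie at -3.26 or below, LOC284344 at -1.4 and -1.63, PSG4 at -1.2 and -0.84, CEACAM1 lies at 2.27 and 4.25, and the points beyond CEACAM1 and CD177 lie between the dotted lines.

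The wider CEACAM group was largely silent in this line. Of 13 relatives listed, 3 had enough counts to be tested, of which 2 rose in shGLO1#1 (CEACAM1 and CEACAM19) and 1 in shGLO1#2 (CEACAM1). CEACAM19, a distant relative elsewhere on chromosome 19, had 10.2, 9.36 and 8.73 CPM in shGLO1#1, 5.12, 4.13 and 4.59 CPM in shGLO1#2, and 5.17, 3.78 and 4.32 CPM in shNT. Only the shGLO1#1 libraries stood apart. On the log2 scale it was higher by 1.09 in shGLO1#1 (SE 0.15, edgeR adjusted p = 5.03e-05), which came to 0.99 and missed the fold limit without shNT replicate 2, and by 0.06 in shGLO1#2 (edgeR adjusted p = 0.801). The median of the 3 was 1.09 in shGLO1#1 and 0.06 in shGLO1#2, beside 0 over all genes.

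Several hallmarks of the cell type that normally makes PSG were nearly absent, though not all. CGA and CSH1, which encode the alpha subunit of chorionic gonadotropin and placental lactogen, had 0 counts in every library, which allows at most 0.163 to 0.202 CPM per library. HSD3B1, a steroid enzyme of the syncytiotrophoblast, had 1 count in 1 library. GCM1, the factor that drives syncytiotrophoblast formation, had at most 2 counts and CYP19A1, the aromatase, at most 4. Other genes of the placental list were low but detected. INSL4 had 0 to 8 counts per library and CGB7 had 3 to 12. PLAC1 lay between 0.652 and 1.21 CPM. Of 41 listed placental and trophoblast genes in the files, 11 were at 0 in every library and 13 could be tested.

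At the fold limit, placental genes that were expressed moved in both directions. Without that limit, PEG10 (-1.63 and -0.65) and GATA2 (-0.79 and -0.36) were lower in both clones at an adjusted p below 0.05 (edgeR). PAPPA (2.28 and 0.92) was higher in both by the same measure. In shGLO1#1, 1 rose (PAPPA) and 3 fell (PAPPA2, PEG10 and ALPP), and 9 did not pass. In shGLO1#2, 3 rose (PAPPA2, ADAM12 and MSX2) and 1 fell (ALPP), and 9 did not pass. MSX2 missed the limit without shNT replicate 1 (0.9), PGF passed it as lower in shGLO1#1 with 4 of the libraries left out in turn (-1.14 to -1.04), and PAPPA as higher in shGLO1#2 without shNT replicate 2 (1.08) or replicate 3 (1.17). The median log2 fold change of the 13 was -0.11 in shGLO1#1 and 0.08 in shGLO1#2, beside 0 over all genes. ALPP, the placental alkaline phosphatase, was the only gene of the list that passed the fold limit as lower in both clones. It had 3.21, 2.28 and 3.93 CPM in shGLO1#1, 2.68, 1.84 and 3.85 CPM in shGLO1#2, and 8.47, 6.72 and 8.75 CPM in shNT, so that on the log2 scale it fell by 1.35 in shGLO1#1 (SE 0.24, edgeR adjusted p = 0.000385) and fell by 1.53 in shGLO1#2 (SE 0.24, edgeR adjusted p = 0.000208).

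PAPPA2, a protease that cleaves insulin-like growth factor binding proteins, moved in opposite directions in the clones. It had 0.247, 0.381 and 0.171 CPM in shGLO1#1, 7.37, 7.37 and 3.85 CPM in shGLO1#2, and 1.34, 1.43 and 0.941 CPM in shNT. The 3 groups did not overlap. On the log2 scale it fell by 2.16 in shGLO1#1 (SE 0.48, edgeR adjusted p = 0.00225) and rose by 2.33 in shGLO1#2 (SE 0.29, edgeR adjusted p = 2.42e-05), and the clones differed by 4.49 (SE 0.37, edgeR adjusted p = 5.64e-07). Its relative PAPPA rose by 2.28 in shGLO1#1 (SE 0.3, adjusted p = 3.26e-05), and was at 0.92 in shGLO1#2, short of the fold limit. ADAM12, a disintegrin and metalloprotease, rose by 1.37 in shGLO1#2 (SE 0.27, adjusted p = 0.00131), and MSX2, a homeobox factor, by 1.1 (SE 0.3, adjusted p = 0.0103).

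The most abundant placental genes were PEG10, TFPI2 and TEAD4. PEG10, an imprinted gene derived from a retrotransposon, had 194, 184 and 210 CPM in shGLO1#1, 357, 394 and 405 CPM in shGLO1#2, and 591, 594 and 635 CPM in shNT. It fell by 1.63 on the log2 scale in shGLO1#1 (SE 0.06, adjusted p = 2.25e-09, edgeR) and stood at -0.65 in shGLO1#2 (adjusted p = 2.91e-06, edgeR), short of the fold limit. TFPI2, an inhibitor of coagulation proteases, stood at 0.6 in shGLO1#1 and -0.4 in shGLO1#2, and TEAD4, a transcription factor of the trophoblast, at -0.34 and -0.24. Summed over the list, the level was 280 to 314 CPM in shGLO1#1, 439 to 491 CPM in shGLO1#2 and 674 to 730 CPM in shNT, most of it PEG10. The part of these genes in the PSG result was not tested.

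The listed binding partners of PSG proteins were mostly expressed and mostly uncalled. Of 17 partners, 14 were tested, with 1 higher and 0 lower in each clone. SDC1, a cell surface proteoglycan with heparan sulphate chains, had 132, 149 and 129 CPM in shGLO1#1, 58, 73.8 and 59.8 CPM in shGLO1#2, and 71, 68.9 and 57.7 CPM in shNT. It rose in shGLO1#1 by 1.05 (SE 0.1, adjusted p = 1.7e-06, edgeR), a call at the fold limit that was lost without shNT replicate 3 (0.97) or shGLO1#1 replicate 2 (0.99), and was at -0.04 in shGLO1#2. SDC2, a related proteoglycan, had 17.6, 13 and 13.6 CPM in shGLO1#1, 38.6, 26.9 and 32.7 CPM in shGLO1#2, and 9, 13.3 and 11.8 CPM in shNT, and rose in shGLO1#2 by 1.52 (SE 0.16, adjusted p = 7.19e-06). The median of the 14 was 0.16 in shGLO1#1 and -0.09 in shGLO1#2, beside 0 over all genes.

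Of 11 listed factors that are known to act on PSG promoters, 10 were tested and edgeR called 0 in either clone, as did DESeq2. At an unadjusted p under 0.05 the number was 6 in shGLO1#1 and 5 in shGLO1#2. The share of all genes at that limit was not worked out, so nothing is read from these numbers. KLF4, a zinc finger factor of CACCC boxes that was singled out after its values were seen, had 44.6, 47.1 and 46.5 CPM in shGLO1#1, 49.3, 42.3 and 46.7 CPM in shGLO1#2, and 22.1, 26 and 24.1 CPM in shNT. The shNT libraries lay below all silenced ones. The difference was 0.94 on the log2 scale in each clone (SE 0.08, edgeR adjusted p = 9.68e-07 in shGLO1#1 and 1.34e-06 in shGLO1#2). It came to 1 and was called in shGLO1#2 without shGLO1#2 replicate 2. The median of the 10 was 0.16 in shGLO1#1 and 0.07 in shGLO1#2, beside 0 over all genes.

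The genes whose pattern was most like the summed PSG family were taken over all 9 libraries, as the smallest root mean square difference of log2 CPM centred on each gene's mean. SLC6A20, a transporter of imino acids, was the nearest, at 0.259 log2 units. It had 0.679, 0.707 and 0.855 CPM in shGLO1#1, 0.305, 0.558 and 0.869 CPM in shGLO1#2, and 12.4, 6.39 and 11.5 CPM in shNT, again with shNT replicate 2 the lowest control library. Then came TSPYL5 (0.285), TNNC1 (0.361), MUSK (0.363), SYNPR-AS1 (0.48), MAGEB1 (0.486), OLR1 (0.502), C9orf84 (0.567), COL4A3 (0.569) and LINC01088 (0.574). None of the 10 lies on chromosome 19. Among the members, PSG9 was at 0.283, with 1 gene outside the family closer to the sum, and PSG4 was at 1.27, with 190 genes closer. The members are part of the sum, and PSG9 held 31.2% of its counts in shNT. The closeness of PSG9 is thus partly built in.

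Most of these genes kept some expression in the silenced cells, as the summed PSG family did. MUSK, a receptor kinase of the neuromuscular junction, had 2.84, 2.88 and 3.42 CPM in shGLO1#1, 3.23, 4.24 and 4.34 CPM in shGLO1#2, and 36.1, 26.1 and 33.8 CPM in shNT. COL4A3, a chain of basement membrane collagen, had 0.864, 0.87 and 1.03 CPM in shGLO1#1, 2.31, 1.56 and 1.37 CPM in shGLO1#2, and 17.7, 9.45 and 11 CPM in shNT. TSPYL5 and MAGEB1 had 0 counts in all 6 silenced libraries. For the likeness, the prior count of 2 set both at -3.067 log2 CPM in each of these libraries. Their places in the ranking thus depend on that prior and on their summed shNT counts, 58 for TSPYL5 and 108 for MAGEB1. The fitted log2 fold change was -7.34 for TSPYL5 and -8.22 for MAGEB1 in each clone. The summed family stood at -3.56 in shGLO1#1 and -3.76 in shGLO1#2. A likeness in size to the family is therefore not shown for either gene. OLR1 was also close to the detection limit in shGLO1#2, with 0, 0 and 1 counts and a fitted log2 fold change of -6.53. TNNC1 had 1 to 3 counts in each silenced library. The prior thus bears on the places of OLR1 and TNNC1 too. With 3 counts per group as the floor, shNT exceeded shGLO1#1 at least 20.9-fold for TSPYL5 and at least 38.9-fold for MAGEB1, and shGLO1#2 at least 20.2-fold and at least 37.6-fold. These genes were chosen for their likeness, so no test is attached to them.

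**Figure D5:**
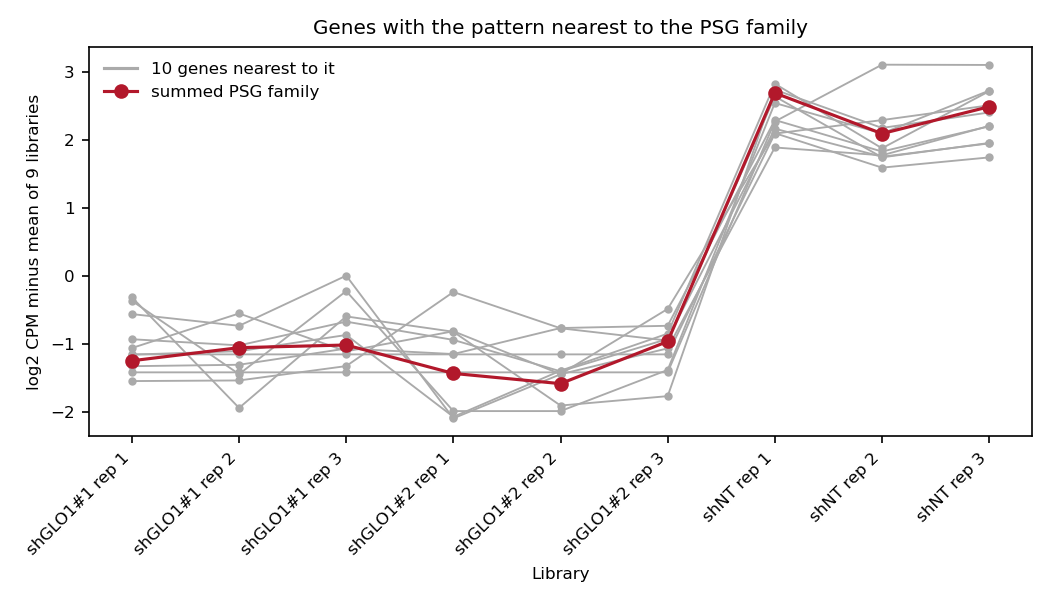
Log2 CPM minus each gene's mean over the 9 libraries, for the summed PSG family (red) and the 10 genes nearest to it (grey), in the libraries of shGLO1#1, shGLO1#2 and shNT. All lines are low in the 6 silenced libraries and high in the 3 shNT libraries, and the family's line is lower in shNT replicate 2 than in the other control libraries.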

How the data were processed

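RNA of 9 MDA-MB-231 libraries was measured. The deposited values are the authors' unnormalized read counts for each gene symbol. Reads from bcl2fastq 2.17 were aligned to hg19 with TopHat2 2.1.1 and counted with HTSeq, per the submitters' processing notes. The sources used here name no HTSeq version, annotation or strand setting. Reads that align to several places are left out by such counting, which bears on near-identical paralogs. Rows that name no gene held 12.8 to 15.2% (no feature), 1.5 to 1.95% (ambiguous) and 5.76 to 6.15% (not unique) of the counted alignments and were left out of library sizes.

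The count models were run in edgeR 4.0.16 (R 4.3.3). filterByExpr (minimum count 10, minimum total 15) kept 13704 of 26364 genes, TMM scaled the libraries (factors 0.972 to 1.04), and quasi-likelihood models over all 9 libraries gave log2 fold changes. P-values were adjusted by Benjamini and Hochberg over all genes. Calls needed an adjusted p below 0.05 together with a log2 fold change beyond 1 in size. Standard errors were derived from the fold change and its F statistic. The replicates are described as biological, but each group is 1 clone, so p-values measure the spread within a clone. Ratios of summed counts have exact (Clopper-Pearson) and shares Wilson 95% intervals, and a group at 0 was set to a floor of 3 counts. No 2 libraries of a group were copies of each other (chi-square per degree of freedom 3.1 to 8.6).

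Deviations of same-numbered libraries from their group means had correlations of 0.21, 0.19 and 0.31 between shGLO1#2 and shNT. They were -0.03, 0.06 and 0.25 between shGLO1#1 and shNT, and 0.2, 0.07 and 0.34 between the clones. Without a reference from libraries of unlike number, these values cannot decide whether the numbers pair libraries. The main fit used no pairing. Alternatives were RLE scaling, DESeq2 1.42.0, no filter, a mean of at least 1 CPM, only the 6 libraries compared, a replicate block, no fold limit, shares per length, and leaving out each library. Leaving PSG4 out of the family sum was added after seeing the data.

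The members and gene lists were chosen with earlier results of these data known. Named are every member, GLO1, up to 6 called genes of each other list with the largest change in either clone, the direct neighbours of the cluster, the 10 tested genes nearest to the family sum (prior count 2) and the 3 most abundant placental genes. Gene order comes from RefSeq (GRCh38.p14), promoters from the same build, and lengths and shared stretches from GENCODE transcripts.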

Additional observations from a re-analysis of the deposited data

Results flagged for a closer look

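Among the family, 2 members were marked because their change differed between the clones by the test of that difference. PSG1 was lower in shGLO1#2 than in shGLO1#1 by a log2 difference of -1.91 (adjusted p = 0.000802, edgeR), with all 3 shGLO1#2 libraries below all 3 shGLO1#1 libraries. PSG5 differed by -1.19 (adjusted p = 0.0285, edgeR), also without overlap, and its call was lost with 4 of the 9 libraries left out in turn. Of all genes tested, 28.5% had their shGLO1#2 libraries below their shGLO1#1 libraries in this way, so nothing is read from the lack of overlap. CEACAM1, beyond the cluster, was higher in shGLO1#2 than in shGLO1#1 by 1.98 (adjusted p = 0.000117, edgeR) and higher in each shGLO1#2 library. The share of all genes without overlap in that direction was not worked out. These values are given without an explanation.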

How the results depend on the processing

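Every fitted log2 fold change of a member against shNT kept its sign under every alternative run. Leaving out 1 library at a time gave -3.71 to -3.42 for the summed family in shGLO1#1, -3.96 to -3.62 in shGLO1#2 and -0.41 to -0.07 between the clones. Without PSG4 the summed family stood at -4.11 in shGLO1#1, -4.78 in shGLO1#2 and -0.67 between the clones. PSG4 itself ranged from -1.27 to -1.14 in shGLO1#1 and from -1.02 to -0.68 in shGLO1#2. PSG6 in shGLO1#1 ranged from -7.85 to -4.74, since shGLO1#1 replicate 2 holds its only 2 counts there.

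Between the clones, leaving out libraries gave 1 to 2 called members. Values near 0 changed sign: PSG7 ranged from -0.28 to 0.3, PSG8 from -0.46 to 0.71, PSG11 from -0.75 to 0.04 and PSG10P from -0.12 to 0.59. PSG5 ranged from -1.55 to -0.96 and PSG1 from -2.1 to -1.74. With a replicate block PSG1 was at -1.91 (adjusted p = 0.000237, edgeR) and PSG5 at -1.2 (adjusted p = 0.00876), and the block changed no call of a member or list.

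Without the fold limit the called genes in shGLO1#1 and shGLO1#2 numbered 4 and 3 on the CEACAM8 side, 6 and 6 on the CD177 side, 9 and 8 among placental genes, 10 and 7 among partners, and 5 and 4 among promoter regulators. The share of all genes called without the fold limit was not worked out, so nothing is read from these counts. Without a filter TMEM145 joined CEACAM1 on the CEACAM8 side in shGLO1#1, giving 2. With a library left out, the counts in shGLO1#1 were 1 to 2 for CEACAM relatives and for each side, 4 to 5 for placental genes, and 0 to 1 for partners. In shGLO1#2 they were 3 to 5 for placental genes, where MSX2 missed the limit without shNT replicate 1 (0.9), and 0 to 1 for promoter regulators, where KLF4 reached it without shGLO1#2 replicate 2.

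Per length, PSG7 held 13.4% and PSG11 3.29% of the family in shNT. Depth limits PSG2, PSG3, PSG6, PSG8 and PSG11, each with 8 or fewer counts per clone. The 3 groups are 1 clone each, which no alternative addresses.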
